A study of Rattus norvegicus with 18 samples.

Results

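Transcript levels of 8 genes of the corticosteroid stress response were followed in rat hippocampus across 3 diets and 2 training states. The genes were the corticosteroid receptors Nr3c1 and Nr3c2 and the stress-responsive genes Sgk1, Fkbp5, Tsc22d3, Nfkbia, Errfi1 and Mt2A. All probe sets whose symbol in the platform annotation was a member were taken, whatever their values. This gave 9 probe sets of 15923 on the array, or 8 genes of 10412 with a symbol of their own. Nr3c1 had 2 probe sets and each other gene had 1. The series concerns learning disabilities in rats exposed to alcohol before birth, and each of its 18 arrays measured total RNA of 1 hippocampus sample. The alcohol diet had 4 trained and 4 naive arrays, the isocaloric diet 4 trained and 2 naive arrays, and the control diet 2 trained and 2 naive arrays. Training is given in the labels only by the abbreviation CFC. Strain, age, dose, the period of exposure and the time between training and collection are not given in the sources used here. The labels state neither that replicates came from separate animals nor which samples shared a litter, so p-values reflect only how these samples scatter, part of which may be technical.

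Corticosterone, the main glucocorticoid of rats, crosses cell membranes and binds a pair of nuclear receptors. The mineralocorticoid receptor, encoded by Nr3c2, binds it tightly and is abundant in hippocampal neurons, and the glucocorticoid receptor, encoded by Nr3c1, is filled mainly at the daily peak and during stress. The hippocampus is known as a site of negative feedback on the stress axis and as a site where glucocorticoids affect memory. Unliganded receptor is held by heat shock protein chaperones with immunophilin cochaperones such as FKBP5. Bound receptor raises transcription of Fkbp5, Tsc22d3, Sgk1, Errfi1, Nfkbia and metallothionein genes in many tissues, and several of these products, FKBP5 foremost, feed back on the signal.

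Signal is given as intensity on the linear scale of the deposited values, and changes as log2 fold changes with standard error (SE). All changes were computed on log2(intensity + 6.06), which understates the change of dim probe sets. A change was called where its Benjamini-Hochberg adjusted p over 9520 probe sets was under 0.05 in limma. A diet change averages its value in trained samples and its value in naive samples with equal weight. Counts such as 8 of 8 give the arrays of the first-named group that lay on the stated side of the second group's mean in the same training state. In bulk tissue, fewer cells of a type and less RNA per cell cannot be told apart.

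All arrays had a trimmed mean of 150, and arrays of a group correlated at 0.952 to 0.985. Among markers of neurons, the CA1 field and astrocytes, the lowest mean intensity over all arrays was 96.2. It was 14.1 among markers of the CA3 field, of which 2 of 3 on the array passed the filter. Among markers of dentate granule cells it was 11.3, and 1 of 3 passed. The choroid plexus marker Ttr, made by the fluid-secreting tissue of the ventricles beside the hippocampus, ranged from 62.5 to 7331. It stood more than 1 log2 unit above the median on 6 arrays (alcohol trained replicates 3 and 4, alcohol naive replicate 2, isocaloric trained replicates 2 and 3, control trained replicate 1) and above an intensity of 1000 on 4 of these. Summed intensity of 8 endothelial and mural markers was 870 to 1106 on alcohol, 897 to 1008 on isocaloric and 557 to 607 on control arrays. In both comparisons with the control diet, 5 of 5 tested markers of that list were higher, with a median of 0.79 for alcohol and 0.88 for isocaloric. The hemoglobin gene Hbb, the 1 blood marker tested, fell by 0.56 (adjusted p = 0.00813) for alcohol and by 0.50 (adjusted p = 0.0422) for isocaloric versus control. Of 6 microglial markers tested, C1qa fell by 0.52 (adjusted p = 0.00877) for isocaloric versus control, and 0 were called for alcohol versus control, where 1 had an unadjusted p under 0.05. The log2 ratio of the 3' to the 5' Gapdh control probe set, a measure of RNA integrity, was 0.26 ± 0.12 (SD, n = 8) on alcohol arrays. It was 0.13 ± 0.04 (SD, n = 6) on isocaloric and 0.26 ± 0.07 (SD, n = 4) on control arrays. The isocaloric values differed from the alcohol values (exact two-sided permutation test, p = 0.0283, adjusted over 6 comparisons 0.0425) and from the control values (exact permutation p = 0.00476, adjusted 0.0143). The same ratio for actin was 0.40, 0.41 and 0.64, and differed between alcohol and control (exact permutation p = 0.0242, adjusted 0.0425) and between isocaloric and control (exact permutation p = 0.00476, adjusted 0.0143). The control naive replicate 1 and control trained replicate 2 arrays were written with fewer digits than the others, which leaves 1 array in each control group without them. A summary method, MAS5, was stated for these arrays alone, so control arrays may mix methods.

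Promoter sequence of 3 of the 4 genes with a called diet change is shown here, and that of Tsc22d3 is not. Corticosteroid, NF-kappaB and metal response elements are textbook routes by which genes of this kind are switched. The GC box marked in Nr3c1 is none of these elements. Each run is the 250 bases before the most 5′ RefSeq start (assembly GRCr8), on the gene's strand. The Nr3c1 run is chr18:31614220-31614469 (minus strand), the Nfkbia run chr6:78597073-78597322 (minus strand) and the Mt2A run chr19:10838709-10838958 (minus strand). Capitals mark the GC box GGGCGG in Nr3c1, the kappaB consensus in Nfkbia and the metal response core TGCACNC or TGCGCNC in Mt2A, on either strand.
Nr3c1: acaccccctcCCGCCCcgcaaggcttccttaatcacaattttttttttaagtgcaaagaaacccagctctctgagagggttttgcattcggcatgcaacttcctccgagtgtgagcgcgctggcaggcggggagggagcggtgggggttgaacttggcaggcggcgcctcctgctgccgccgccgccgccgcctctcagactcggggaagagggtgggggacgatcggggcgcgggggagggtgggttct
Nfkbia: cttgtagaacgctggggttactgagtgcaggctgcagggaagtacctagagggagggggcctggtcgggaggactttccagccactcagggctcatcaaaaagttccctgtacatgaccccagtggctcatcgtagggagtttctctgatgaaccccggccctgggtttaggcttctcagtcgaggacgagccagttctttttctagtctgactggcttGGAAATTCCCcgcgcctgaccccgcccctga
Mt2A: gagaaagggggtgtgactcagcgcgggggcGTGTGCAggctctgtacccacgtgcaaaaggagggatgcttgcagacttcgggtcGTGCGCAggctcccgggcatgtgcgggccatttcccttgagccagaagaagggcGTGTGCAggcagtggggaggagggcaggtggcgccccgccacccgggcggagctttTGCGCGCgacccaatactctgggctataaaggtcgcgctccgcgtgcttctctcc
The Nfkbia window held 1 kappaB match, GGAAATTCCC, at bases 31 to 22 before the start. A kappaB match stood in 6.33% of 33469 RefSeq windows of the same length. The Mt2A window held 4 metal response cores, with first bases at 220, 165, 111 and 55 before the start. At least 1 such core stood in 20.6% of all windows. The Nr3c1 window held 1 GC box, a motif found in 30.5% of all windows. Matches not put in capitals were 1 metal response core and 1 GC box in Nfkbia and 1 GC box in Mt2A. The window of the other Nr3c1 start, not shown, held 3 GC boxes and 1 metal response core. RefSeq windows were matched for 7 of the 8 genes, 12 in all because Nr3c1 had 2 starts and Sgk1 and Tsc22d3 had 3 each. None of the 12 held the corticosteroid response core AGAACA on either strand, which stood in 17.5% of all windows. That count says only that these letters are not in these windows.

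**Figure D1:**
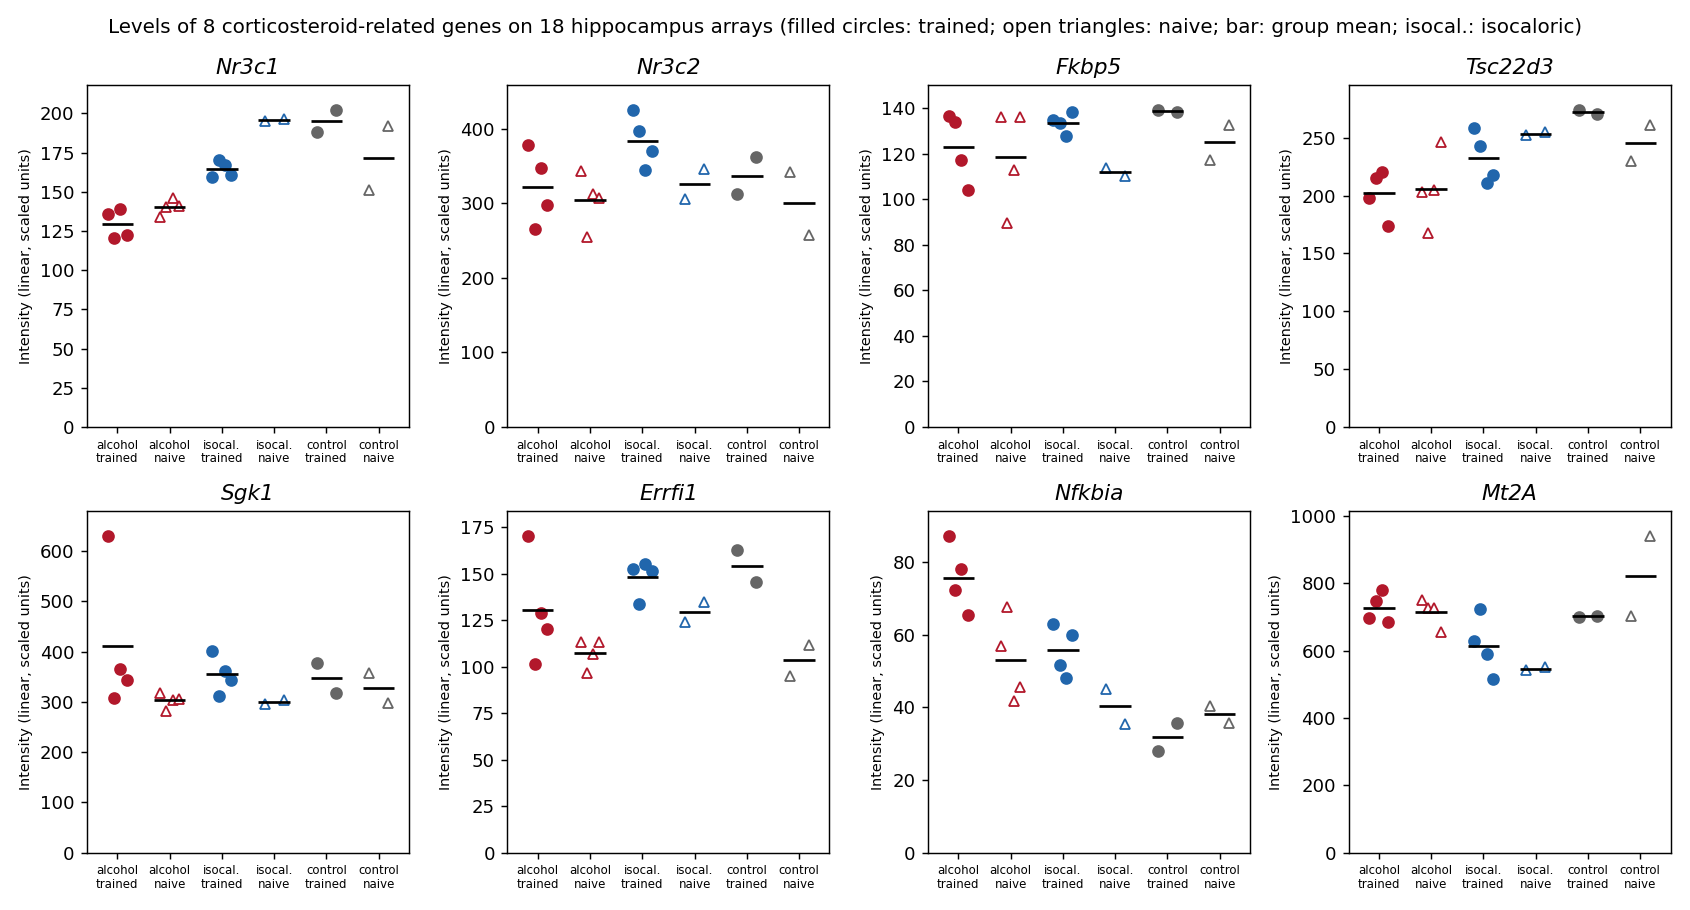
Intensity of the leading probe set of each gene (vertical axes, linear scaled units, starting at 0) on each array of the 6 diet and training groups, with filled circles for trained samples, open triangles for naive samples and a bar at the group mean. Nr3c1 lay between 120.3 and 145.9 on all 8 alcohol arrays and between 150.9 and 202.1 on the other 10, and every alcohol array lay above every control array for Nfkbia.

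Nr3c1 fell in alcohol-diet hippocampus against both other diets. Its leading probe set (1368221_at) read 135.9, 120.3, 139.0 and 122.4 on the alcohol trained arrays and 134.2, 140.5, 145.9 and 141.2 on the alcohol naive arrays. It read 159.6, 170.1, 167.1 and 160.8 on the isocaloric trained arrays and 195.2 and 196.3 on the isocaloric naive arrays. The control diet gave 188.1 and 202.1 in trained and 150.9 and 192.0 in naive samples. All 8 alcohol arrays lay below every isocaloric and every control array, so the ranges did not overlap. The share of all probe sets with ranges apart in this way was not computed. Against isocaloric the log2 change was -0.40 (SE 0.07, 95% interval -0.54 to -0.26, adjusted p = 0.00525), lower in 8 of 8 arrays. Against control it was -0.42 (SE 0.07, 95% interval -0.57 to -0.27, adjusted p = 0.00115), again in 8 of 8. Isocaloric and control values overlapped, with a change of -0.02 (95% interval -0.19 to 0.14, adjusted p = 0.905).

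Ordered by group mean, Nr3c1 was highest in isocaloric naive samples at 195.7 ± 0.784 (SD, n = 2), followed by control trained at 195.1 ± 9.84 (SD, n = 2) and control naive at 171.5 ± 29.1 (SD, n = 2). Isocaloric trained samples came next at 164.4 ± 5.01 (SD, n = 4), then alcohol naive at 140.4 ± 4.82 (SD, n = 4) and alcohol trained at 129.4 ± 9.40 (SD, n = 4). Between neighbours in this order, only the step from isocaloric trained to alcohol naive had ranges that did not overlap. Within trained samples the alcohol versus isocaloric change was -0.33 (SE 0.08, adjusted p = 0.0854), and within naive samples -0.46 (SE 0.10, adjusted p = 0.0838). Neither passed the threshold, nor did any other member in limma. An unadjusted limma p under 0.05 was found for 4 of 8 in trained and 3 of 8 in naive samples. Over all probe sets the shares were 14.7% and 12.4%. Because the members were chosen with earlier results of these data known, this contrast cannot show an excess. For Nr3c1 the test of the difference between strata gave 0.13 (SE 0.13, adjusted p = 1.00). Among all probe sets, 0.399% were called in the trained stratum, 0.0735% in the naive stratum and 0% for that difference in limma, where 401 probe sets had an unadjusted p under 0.05.

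The second Nr3c1 probe set (1368222_at) was dim and gave no test. Its mean level lay above only 18.9% of probe sets, below the filter, and its intensity ran from 1.74 to 39.9. Alcohol arrays had a median of 19.1 (11.6 to 39.9), isocaloric arrays 18.6 (1.74 to 31.2) and control arrays 16.4 (13.8 to 20.6). All 3 ranges overlapped, so the separation of alcohol arrays in the leading probe set was not seen in it. The probe sequences of the pair are not used here, so which part of the transcript each reads was not compared.

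The Nr3c1 call against isocaloric was lost when the Gapdh ratio was added as a covariate (-0.34, adjusted p = 0.0788), without the 6 arrays high in Ttr (-0.39, adjusted p = 0.168), without the 4 with Ttr over 1000 (-0.38, adjusted p = 0.0526) and without isocaloric naive replicate 2 (-0.40, adjusted p = 0.052). The call against control was kept under all 32 alternative settings, with changes of -0.50 to -0.34 and adjusted p up to 0.0457. With the actin ratio as covariate it was -0.46 (adjusted p = 0.0282). The part of the higher endothelial markers and the lower Hbb in this result was not tested.

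Nr3c2, the mineralocorticoid receptor, showed no called change. Its level lay above 86.3% of probe sets. Alcohol arrays ran from 255.2 to 379.0 with a median of 309.8, isocaloric arrays from 305.9 to 425.0 with a median of 358.1, and control arrays from 257.9 to 361.6 with a median of 327.4. The 3 ranges overlapped broadly, with the isocaloric trained arrays (425.0, 397.2, 345.3 and 369.8) toward the top. The change was -0.18 (95% interval -0.38 to 0.02, adjusted p = 0.27) for alcohol versus isocaloric and -0.02 (95% interval -0.24 to 0.19, adjusted p = 0.903) for alcohol versus control. Isocaloric versus control gave 0.16 (95% interval -0.07 to 0.39, adjusted p = 0.397). By group mean the order ran from isocaloric trained (384.3) through control trained (336.9), isocaloric naive (326.1), alcohol trained (322.6) and alcohol naive (304.5) to control naive (300.2). All neighbours in that order overlapped in range.

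Among the 8 leading probe sets, 2 were called for alcohol versus isocaloric, 1 in each direction, where 3.06% of all probe sets were called (1.47% higher and 1.59% lower). For alcohol versus control, 3 were called, 1 higher and 2 lower, where 19.9% of all were called (11.3% higher and 8.61% lower). For isocaloric versus control 1 was called, where 7.05% of all were. The median change of the 8 was -0.11, -0.08 and -0.03 in these comparisons, against -0.02, 0.00 and 0.02 over all probe sets tested. The comparisons share arrays, so their calls are not independent of each other. The members were chosen with earlier results of these data known, so these counts cannot show an excess over all probe sets.

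**Figure D2:**
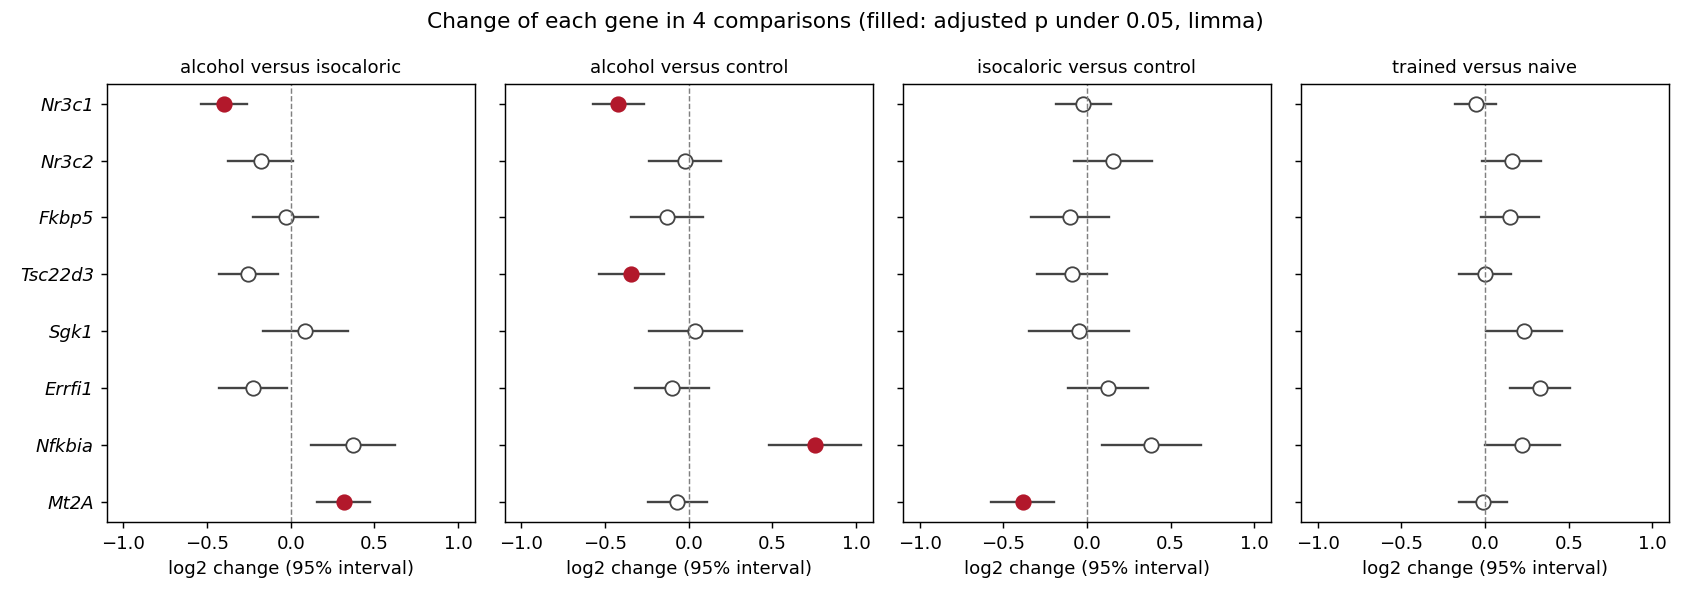
Log2 change of each gene (points, with 95% intervals as lines on the horizontal axes) in the 3 diet comparisons and in trained versus naive samples, with filled points for changes called at an adjusted p under 0.05 in limma. Nr3c1 was called against both other diets, Nfkbia and Tsc22d3 against control, Mt2A for isocaloric against both other diets, and no gene for training.

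Tsc22d3, which encodes the glucocorticoid-induced leucine zipper protein GILZ, was lower in alcohol than in control hippocampus. The control trained arrays read 273.8 and 270.9 and the control naive arrays 230.2 and 260.9. The alcohol trained arrays read 198.2, 215.3, 220.7 and 173.7, and the alcohol naive arrays 203.2, 167.7, 205.2 and 246.6. Of the 8 alcohol arrays, 7 lay below every control array, and alcohol naive replicate 4 lay inside the control range. The change was -0.34 (SE 0.09, 95% interval -0.53 to -0.15, adjusted p = 0.0148), lower in 7 of 8 arrays. The isocaloric trained arrays read 258.9, 243.0, 211.3 and 217.8 and the isocaloric naive arrays 252.2 and 254.7. Their mean lay between those of the other diets, with -0.25 (SE 0.08, adjusted p = 0.0931) for alcohol versus isocaloric and -0.09 (SE 0.10, adjusted p = 0.62) for isocaloric versus control.

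The order of group means for Tsc22d3 ran from control trained (272.4) through isocaloric naive (253.5), control naive (245.5), isocaloric trained (232.8) and alcohol naive (205.7) to alcohol trained (202.0). Of these neighbours, control trained and isocaloric naive had ranges that did not overlap. The call against control was lost without the 6 arrays high in Ttr (-0.27, adjusted p = 0.149) and without the 4 with Ttr over 1000 (-0.26, adjusted p = 0.106). It was also lost with the actin ratio as covariate (-0.41, adjusted p = 0.0824), with array weights (-0.32, adjusted p = 0.0683), and without control naive replicate 2 (-0.30, adjusted p = 0.0954) or control trained replicate 1 (-0.34, adjusted p = 0.0587). The change against isocaloric passed without alcohol naive replicate 4 (-0.30, adjusted p = 0.0439) and with array weights (-0.22, adjusted p = 0.0441), and was -0.10 (adjusted p = 0.593) with the Gapdh ratio as covariate. The endothelial markers were higher and Hbb lower in the alcohol versus control comparison, and their part in the Tsc22d3 result was not tested.

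Fkbp5, the receptor cochaperone, did not differ detectably between diets. Alcohol arrays ran from 89.7 to 136.6 with a median of 125.5, isocaloric arrays from 110.3 to 138.4 with a median of 130.6, and control arrays from 117.5 to 139.1 with a median of 135.4. The alcohol arrays spread over the whole range, from the lowest of the 18 (alcohol naive replicate 2) to values close to the top. Alcohol versus control was -0.13 (95% interval -0.35 to 0.08, adjusted p = 0.39), alcohol versus isocaloric -0.03 (95% interval -0.23 to 0.17, adjusted p = 0.891) and isocaloric versus control -0.10 (95% interval -0.33 to 0.13, adjusted p = 0.617). The sign of the alcohol versus isocaloric value turned under 7 of 32 alternatives, among them quantile normalisation and centring on the median.

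Sgk1, a kinase that controls ion channels and transporters and is induced by both receptors, also had no called diet change. The alcohol trained arrays read 629.8, 307.3, 366.1 and 342.8, and replicate 1 was far above the other 17 arrays of the series, which lay between 282.7 and 401.4. The alcohol naive arrays read 318.3, 282.7, 304.2 and 306.3. Alcohol versus isocaloric was 0.09 (95% interval -0.17 to 0.34, adjusted p = 0.721) and became -0.02 (adjusted p = 0.882) without alcohol trained replicate 1. Alcohol versus control was 0.04 (95% interval -0.24 to 0.32, adjusted p = 0.867) and isocaloric versus control -0.05 (95% interval -0.35 to 0.25, adjusted p = 0.887). The same array was also the highest of the 18 for Errfi1, at 170.2, and for Nfkbia, at 87.1. Its Ttr intensity was 221.0, so it was not among the arrays high in that marker.

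Errfi1, which encodes the ERBB receptor inhibitor MIG6, had lower values on alcohol arrays than on isocaloric arrays without reaching the threshold. The alcohol trained arrays read 170.2, 101.5, 129.0 and 120.1 and the alcohol naive arrays 113.1, 96.7, 107.0 and 113.5. The isocaloric trained arrays read 152.4, 133.6, 155.2 and 151.2 and the isocaloric naive arrays 123.8 and 134.5. Of the alcohol arrays, 6 of 8 lay below every isocaloric array and alcohol trained replicate 1 lay above all of them. The change was -0.23 (95% interval -0.43 to -0.02, adjusted p = 0.183), and -0.29 (adjusted p = 0.0591) without that array. Alcohol versus control was -0.10 (adjusted p = 0.546) and isocaloric versus control 0.13 (adjusted p = 0.524).

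Nfkbia, which encodes the NF-kappaB inhibitor IkappaB-alpha, had the largest diet change of the 8 genes, higher in alcohol than in control hippocampus. Intensity was 87.1, 72.2, 78.0 and 65.3 on the alcohol trained arrays and 56.9, 67.6, 41.9 and 45.5 on the alcohol naive arrays. On control arrays it was 27.8 and 35.8 in trained and 40.3 and 35.8 in naive samples. Every alcohol array lay above every control array, and the share of all probe sets for which this holds was not computed. The change was 0.76 (SE 0.13, 95% interval 0.48 to 1.03, adjusted p = 0.00115), higher in 8 of 8 arrays, a 1.69-fold difference on the log2(intensity + 6.06) scale. Isocaloric arrays had intermediate values, at 62.8, 51.6, 48.1 and 59.9 in trained and 45.1 and 35.5 in naive samples. Of the isocaloric arrays, 5 of 6 lay above every control array, and 5 of 8 alcohol arrays lay above every isocaloric array. Neither step passed on its own, with 0.37 (SE 0.12, adjusted p = 0.0879) for alcohol versus isocaloric and 0.39 (SE 0.14, adjusted p = 0.0989) for isocaloric versus control.

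By group mean, Nfkbia was highest in alcohol trained samples at 75.7 ± 9.26 (SD, n = 4), followed by isocaloric trained at 55.6 ± 6.87 (SD, n = 4) and alcohol naive at 53.0 ± 11.7 (SD, n = 4). Isocaloric naive samples had 40.3 ± 6.77 (SD, n = 2), control naive 38.1 ± 3.20 (SD, n = 2) and control trained 31.8 ± 5.62 (SD, n = 2). The alcohol trained range did not overlap that of isocaloric trained samples, and the control naive and control trained ranges met at 35.8. The other neighbours overlapped.

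Nfkbia was dim. Its mean log2 level over all arrays was 5.84, just above the filter at 5.78, while its control-diet mean was 5.35, so the probe set entered the test through the diets in which it was higher. With no filter on low values the change against control was also called (adjusted p = 0.00293). The call was kept under all 31 alternatives that tested the probe set, with changes of 0.56 to 0.87 and adjusted p up to 0.0465. The stricter filter left it out. Against isocaloric it passed under quantile normalisation (0.47, adjusted p = 0.0441), centring on the median (0.44, adjusted p = 0.0425) and array weights (0.35, adjusted p = 0.0442). Endothelial and mural markers were higher on the same arrays: against control, Cldn5 rose by 1.39 and Esam by 1.07, while Hbb fell by 0.56. Their part in the Nfkbia result was not tested.

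Mt2A, a metallothionein that binds zinc and copper, was lower in isocaloric hippocampus than under either other diet. Isocaloric trained arrays read 628.2, 724.7, 590.1 and 516.3 and isocaloric naive arrays 541.6 and 551.4. Alcohol trained arrays read 697.4, 746.3, 780.7 and 686.6 and alcohol naive arrays 751.4, 725.9, 727.7 and 655.3. Control arrays read 700.5 and 703.5 in trained and 703.5 and 940.8 in naive samples. Of the isocaloric arrays, 5 of 6 lay below every alcohol and every control array, and isocaloric trained replicate 2 lay inside both other ranges. Alcohol versus isocaloric was 0.32 (SE 0.08, 95% interval 0.16 to 0.48, adjusted p = 0.0335), higher in 8 of 8 arrays. Isocaloric versus control was -0.38 (SE 0.09, 95% interval -0.57 to -0.19, adjusted p = 0.0192), lower in 5 of 6. Alcohol versus control was -0.07 (95% interval -0.24 to 0.11, adjusted p = 0.604).

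The order of Mt2A group means ran from control naive (822.2 ± 168, SD, n = 2) through alcohol trained (727.8 ± 43.8, SD, n = 4), alcohol naive (715.1 ± 41.5, SD, n = 4) and control trained (702.0 ± 2.14, SD, n = 2) to isocaloric trained (614.8 ± 86.8, SD, n = 4) and isocaloric naive (546.5 ± 6.93, SD, n = 2). All neighbours overlapped in range. The Gapdh ratio was lower on the same isocaloric arrays, and with it as covariate the alcohol versus isocaloric change was 0.34 (adjusted p = 0.124). Without the 6 arrays high in Ttr it was 0.36 (adjusted p = 0.21). Astrocytes are a known source of metallothionein, and the summed intensity of 8 astrocyte markers was 11350 to 15450 on alcohol, 11680 to 14420 on isocaloric and 13260 to 16920 on control arrays. The median change of these markers was 0.11 for alcohol versus isocaloric, -0.08 for isocaloric versus control and -0.02 for alcohol versus control, with values of both signs in each comparison. In each, 1 of the 8 was called: Aldoc rose by 0.36 for alcohol versus isocaloric, Slc1a3 fell by 0.36 for isocaloric versus control and Aqp4 fell by 0.28 for alcohol versus control. The summed intensity of 7 microglial markers was 1009 to 1170 on alcohol, 893 to 1028 on isocaloric and 1016 to 1426 on control arrays. The median change of the 6 microglial markers tested was 0.07 for alcohol versus isocaloric. It was -0.23 for isocaloric versus control and -0.11 for alcohol versus control. The part of the astrocyte, endothelial, blood and microglial markers in the Mt2A values was not tested.

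Both Mt2A calls were lost under several settings. For alcohol versus isocaloric, 12 of 32 alternatives missed the threshold (adjusted p up to 0.21), with changes of 0.27 to 0.39 over all 32. These 12 included no filter on low values (adjusted p = 0.0513) and the removal of any 1 of alcohol trained replicate 3, alcohol naive replicates 1, 2 and 3, isocaloric trained replicates 3 and 4 and isocaloric naive replicates 1 and 2 (adjusted p from 0.0545 to 0.152). For isocaloric versus control, 9 of 32 missed it (adjusted p up to 0.244), with changes of -0.49 to -0.28. These 9 included a fit of the compared groups alone (adjusted p = 0.0746), the actin ratio as covariate (-0.30, adjusted p = 0.244) and the removal of any 1 of isocaloric naive replicates 1 and 2, control naive replicate 2 and control trained replicates 1 and 2. Control naive replicate 2 held the highest Mt2A value of the series, and without it the change was -0.28 (adjusted p = 0.144).

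**Figure D3:**
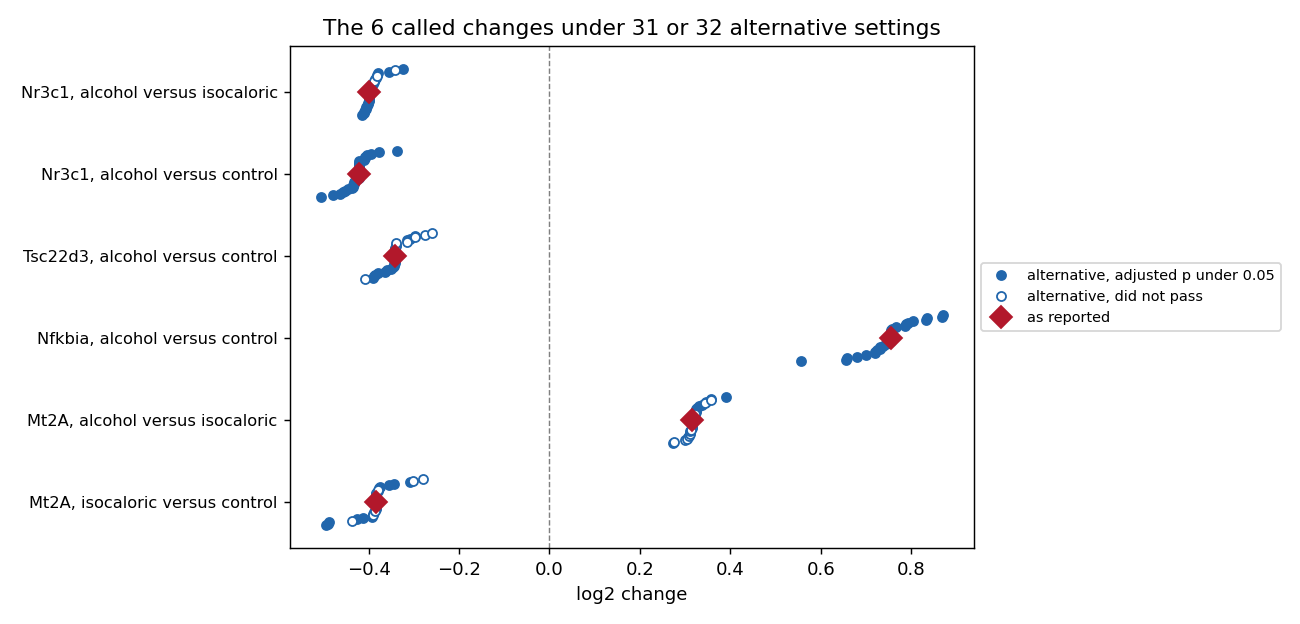
Log2 change (horizontal axis) of the 6 called gene and comparison pairs as reported (diamonds) and under 31 or 32 alternative settings (circles, filled where the adjusted p stayed under 0.05 in limma). The circles of each pair stay on its reported side of 0, and those of Nr3c1 and Nfkbia against control are all filled.

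Training was compared because learning is the stated concern of the series, and 0 of the 8 genes were called in limma, where 1 of all 9520 probe sets was (0.0105%). At an unadjusted p under 0.05 there were 2 of the 8, Errfi1 and Sgk1, and 5.95% of all probe sets. The change was positive for 6 of the 8 genes, with a median of 0.15 over the 8 against 0.00 over all probe sets. Tsc22d3 was among the 6 at 0.00 and turned negative under quantile normalisation. The share of all probe sets with a positive change was not computed. The 8 genes were read on the same arrays, so their signs are not independent. Since the members were chosen with earlier results of these data known, these counts cannot show an excess. Errfi1 had the smallest p, with 0.33 (SE 0.09, 95% interval 0.15 to 0.51, unadjusted p = 0.00122, adjusted p = 0.756), higher in 9 of 10 trained arrays. In control samples both trained arrays (162.7 and 145.5) lay above both naive arrays (95.2 and 111.5), a change of 0.55 (SE 0.17, adjusted p = 0.244). Fkbp5 and Tsc22d3 were apart in the same way in control samples, where each side had 2 arrays. Nfkbia was barely apart in the other direction there, with trained arrays at 27.8 and 35.8 and naive arrays at 35.8 and 40.3. The share of all probe sets apart in either direction was not computed. Errfi1 gave 0.24 (adjusted p = 0.599) in alcohol and 0.19 (adjusted p = 0.823) in isocaloric samples.

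Sgk1 gave 0.23 for training (SE 0.11, 95% interval 0.0041 to 0.46, adjusted p = 0.831), with 9 of 10 trained arrays above the naive mean of their diet. Without alcohol trained replicate 1 it was 0.16 (adjusted p = 0.805). Nfkbia gave 0.22 (SE 0.11, 95% interval -8e-04 to 0.45, adjusted p = 0.832). Its value was 0.48 (SE 0.15, adjusted p = 0.421) in alcohol samples, where 3 of 4 trained arrays lay above every naive array, and 0.41 (SE 0.19, adjusted p = 0.679) in isocaloric samples, where all 4 did. In control samples it was -0.23 (SE 0.21, adjusted p = 0.736), and whether alcohol or isocaloric samples differ from control samples in this was not tested. The test of alcohol against isocaloric samples gave 0.07 (SE 0.24, adjusted p = 1.00). Nr3c2 gave 0.16 (adjusted p = 0.833) and Fkbp5 0.15 (adjusted p = 0.88). Nr3c1, Tsc22d3 and Mt2A gave -0.06, 0.00 and -0.01. Nr3c1 read lower on all 4 isocaloric trained arrays than on both isocaloric naive arrays (-0.24, SE 0.10, adjusted p = 0.663), and the control value had the other sign with overlapping arrays (0.19, SE 0.12, adjusted p = 0.589). Within a diet, 0% of all probe sets were called for training in alcohol, 0% in isocaloric and 0.0315% in control samples by limma, with 818, 678 and 1036 at an unadjusted p under 0.05.

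The genes around the members were taken from 10 lists of 129 genes, of which 105 were on the array and 65 passed the filter. For alcohol versus isocaloric, 1 of the 65 rose and 1 fell, 3.08% against 3.06% of all probe sets, with a median of -0.03. For alcohol versus control, 2 rose and 7 fell, 13.8% against 19.9%, with a median of -0.03. For isocaloric versus control, 1 rose and 5 fell, 9.23% against 7.05%, with a median of 0.00. For training 0 were called in limma and 5 of 65 had an unadjusted p under 0.05, with a median of 0.03.

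Chaperones that fold and hold the receptors made up 13 of the tested genes. Hsp90ab1, the constitutive cytosolic HSP90, rose by 0.34 (SE 0.08, adjusted p = 0.0218) for alcohol versus isocaloric. Against control, Dnaja1, an HSP40 cochaperone, fell by 0.45 (SE 0.06, adjusted p = 0.000247) in alcohol and by 0.37 (SE 0.07, adjusted p = 0.00621) in isocaloric samples. Ptges3, the HSP90 cochaperone p23, fell by 0.29 (adjusted p = 0.00185) and by 0.20 (adjusted p = 0.0479). St13, the HSP70-interacting protein, fell by 0.31 (adjusted p = 0.00971) in alcohol, and Bag1, an HSP70 nucleotide exchange factor, fell by 0.34 (adjusted p = 0.0318) in isocaloric samples. Of 6 coregulators tested, the acetyltransferase gene Crebbp rose by 0.37 (SE 0.09, adjusted p = 0.0125) for alcohol versus control.

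Genes of hormone supply and the stress axis were mostly too dim to test. Of 12 on the array, Hsd11b1 alone passed the filter. It encodes the enzyme that regenerates active corticosterone inside cells, and it fell by 0.31 (SE 0.08, adjusted p = 0.0281) for isocaloric versus control. It gave -0.19 (adjusted p = 0.0792) for alcohol versus control. None of 3 other steroid receptors on the array passed the filter.

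Of 22 other corticosteroid target genes tested, 0 were called for alcohol versus isocaloric in limma, and the median was -0.11, against -0.02 over all probe sets. An unadjusted p under 0.05 was found for 4 of the 22, a share below the 21.7% of all probe sets. Against control, Cebpb, a transcription factor, rose by 0.32 (SE 0.11, adjusted p = 0.0444), and Tgfbr1, the TGF-beta type I receptor, fell by 0.36 (SE 0.11, adjusted p = 0.0274), as did Nedd9, a scaffold protein, by 0.29 (SE 0.09, adjusted p = 0.032). The widely used target genes Per1, Klf9, Ddit4 and Glul gave 0.21, 0.00, -0.14 and -0.12 for alcohol versus control, with adjusted p of 0.694, 0.968, 0.369 and 0.37. Other uncalled genes of the list gave larger changes there, among them Pdk4 at -0.36 and Angptl4 at 0.25. In that comparison 8 of the 22 had an unadjusted p under 0.05 in limma, against 33.6% of all probe sets. Dusp1 gave -0.38 (SE 0.16, adjusted p = 0.179) for alcohol versus isocaloric and 0.50 (SE 0.19, adjusted p = 0.107) for isocaloric versus control.

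Of 7 NF-kappaB pathway genes tested beside Nfkbia, Vcam1, an adhesion molecule of vessels, fell by 0.37 (SE 0.10, adjusted p = 0.0149) for alcohol versus control. The NF-kappaB subunit genes Nfkb1 and Rela gave -0.10 (adjusted p = 0.68) and -0.02 (adjusted p = 0.883) there. Of 8 genes of the SGK family and its partners, Rictor, a core part of the complex that activates SGK1, fell by 0.34 (SE 0.09, adjusted p = 0.0448) for alcohol versus isocaloric and rose by 0.49 (SE 0.11, adjusted p = 0.0131) for isocaloric versus control. Pdpk1, the kinase PDK1 that phosphorylates SGK1, fell by 0.21 (SE 0.06, adjusted p = 0.0261) for alcohol versus control. Of 5 metallothionein and metal handling genes, Mt3, the brain metallothionein, fell by 0.42 (SE 0.11, adjusted p = 0.0336) for isocaloric versus control, the comparison in which Mt2A was also lower. For alcohol versus isocaloric Mt3 gave 0.25 (SE 0.10, adjusted p = 0.15). Of 2 TSC22 family genes and 1 ERBB gene tested, 0 were called in any of the 3 diet comparisons by limma. At an unadjusted p under 0.05 there was 1 TSC22 family gene for alcohol versus isocaloric and 1 for isocaloric versus control.

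**Figure D4:**
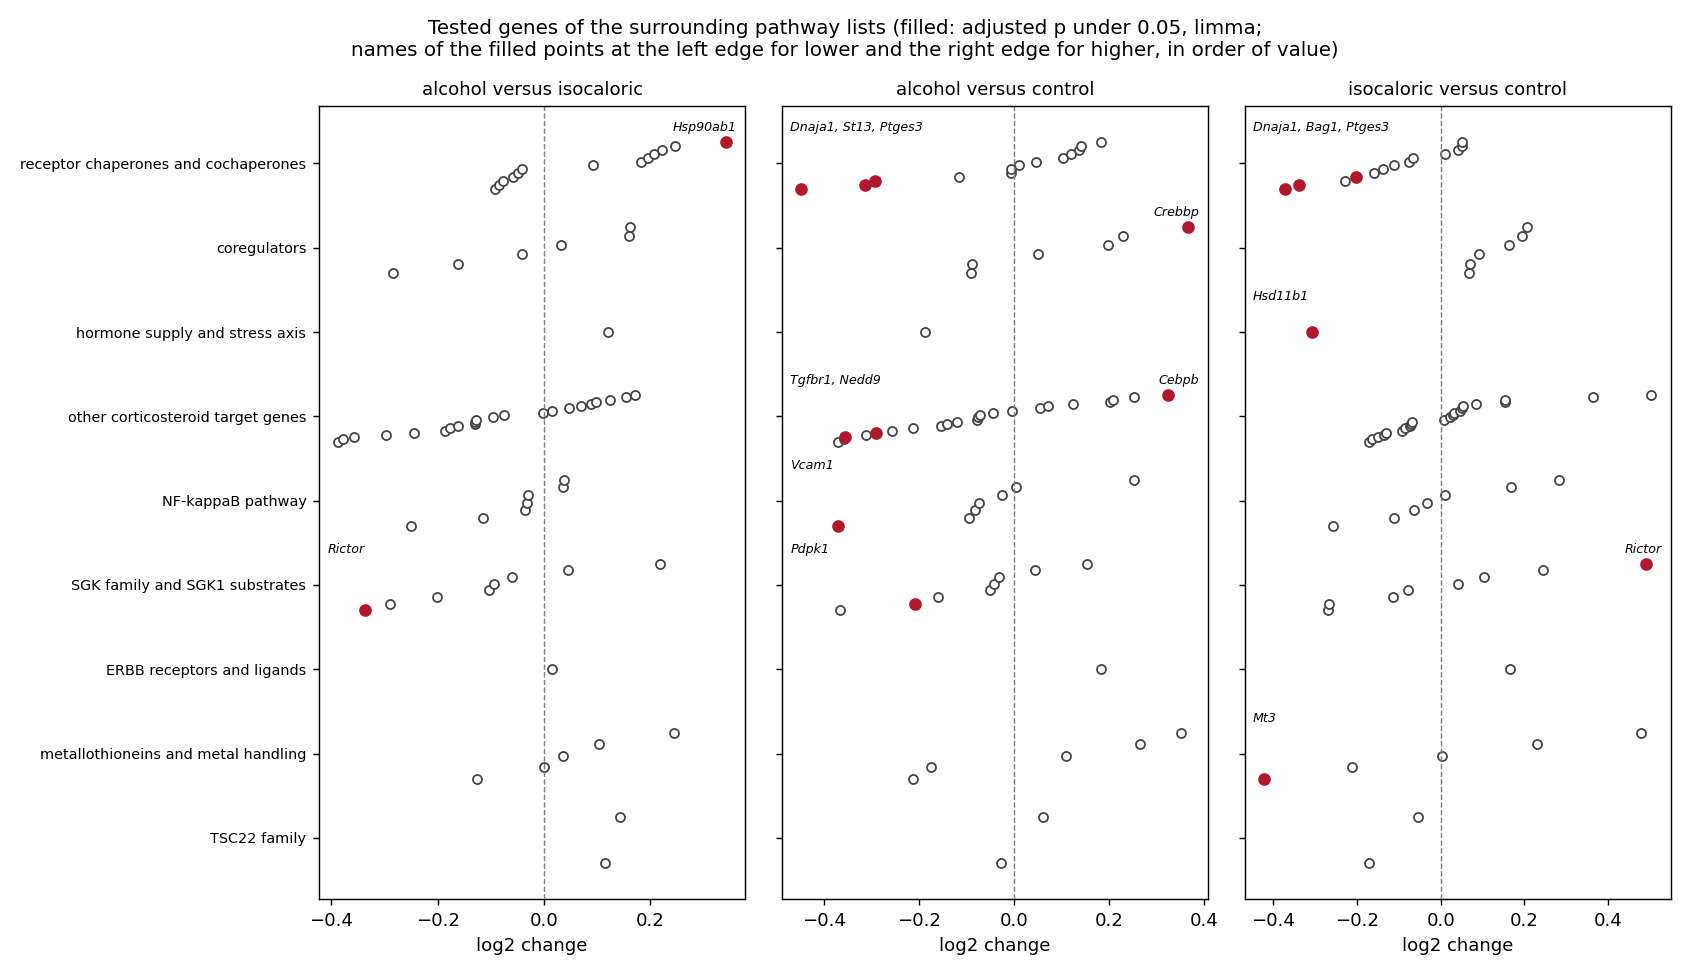
Log2 change (horizontal axes) of the 65 tested genes in 9 pathway lists (rows) for the 3 diet comparisons, with filled points for genes called at an adjusted p under 0.05 in limma and their names at the left edge where lower and at the right edge where higher. Filled points number 2 for alcohol versus isocaloric, 9 for alcohol versus control and 6 for isocaloric versus control.

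Likeness over the 18 arrays is given as Pearson's r of log2 level, as a description, since arrays share diets and scaling. Between members, Nr3c1 and Tsc22d3 ran together at 0.76, and Nfkbia ran against Nr3c1 at -0.75 and against Tsc22d3 at -0.67. Errfi1 ran with Nr3c2 at 0.65 and with Sgk1 at 0.62, while Nr3c1 and Nr3c2 had 0.18. Among 8016 other probe sets with 1 gene symbol, the genes most like Nr3c1 were Nap1l1 (0.92), Cdk14 (0.89) and Rab5a (0.89). Those most like Nfkbia were Palm (0.90), Hapln2 (0.86) and Ppp1r9b (0.85), and those most like Tsc22d3 were Rnf128 (0.88), Cnr1 (0.87) and Ptn (0.87). Mt2A was most like Mrpl54 (0.92), Rpl19 (0.92) and Sod1 (0.91). Nr3c2 was most like Strn4 (0.80), Aggf1 (0.79) and Grin2a (0.77), and Fkbp5 most like Dgkg (0.81), Cop1 (0.73) and Lims1 (0.71). Errfi1 was most like Afdn (0.76), Med13l (0.75) and Tor1aip1 (0.75), and Sgk1 most like Arhgef25 (0.71), Senp2 (0.69) and Gpd1 (0.68).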

How the data were processed

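The authors deposited linear intensity values, 1 for each probe set on each array. Per the submitters' processing notes, 2 samples were summarised with MAS5. For the other samples the summary method was not stated in the sources used here. The 2 samples with MAS5 stated were the 2 control-diet arrays written with at most 6 digits. The deposited intensities had been scaled to a common level, which can hide a change of total RNA. Samples were grouped by diet and training from the labels.

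Tests used log2(value + 6.06), where 6.06 was the level at percentile 10 of the whole table. Probe sets with a mean under the 40th percentile and 57 Affymetrix controls were left out, and 9520 were tested. A model of 6 group means was fitted to all 18 arrays in limma 3.58.1 (lmFit, then eBayes with a trend, under R 4.3.3), with two-sided tests and Benjamini-Hochberg adjustment within each comparison. Scripts were checked on simulated data. Python 3.11.15, pandas 2.3.3, numpy 2.4.6 and matplotlib 3.10.9 were used for promoters and plots. Where a gene has several probe sets, the one with the highest mean leads. Members were named whatever their values. List genes were named where called, at most 4 per list in each comparison. Marker genes, Per1, Klf9, Ddit4, Glul, Dusp1, Pdk4, Angptl4, Nfkb1, Rela and uncalled values of Hsd11b1 and Mt3 were added after their values were seen. The 3 genes most correlated with each member were named. Symbols came from the platform annotation, which can be old. All 8 members matched RefSeq by gene ID with 0 symbols changed. The members and lists were chosen with earlier results of these data known. Of 36 pairs of same-numbered replicates in different groups, 4 deviated together with a correlation over 0.1, so numbers were not taken as pairs. Alternatives varied the constant, filter, normalisation, weights, covariates and arrays, and the removal of the 4 arrays with Ttr over 1000 was chosen after seeing the data.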

Additional observations from a re-analysis of the deposited data

How the results depend on the processing

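The 32 alternatives, 18 of which leave out 1 array each, kept Nr3c1 and Nfkbia called against control, Nfkbia in the 31 that tested it. Against 2 called members for alcohol versus isocaloric, there was 1 with no filter on low values, 4 with array weights, and 0 with the Gapdh ratio as covariate, without the 6 arrays high in Ttr and without the 4 with Ttr over 1000. The fits that leave out 1 array gave 0 to 3, the lowest when isocaloric naive replicate 2 was removed and the highest when alcohol naive replicate 4 was. The count was 1 on removal of alcohol trained replicate 3, alcohol naive replicates 1, 2 or 3, isocaloric trained replicates 3 or 4 or isocaloric naive replicate 1. Against 1 called for isocaloric versus control, there was 0 with only the groups compared, with the actin ratio as covariate and in both fits without Ttr-high arrays, and 0 to 1 when 1 array was left out, with 0 without isocaloric naive replicates 1 or 2, control naive replicate 2 or control trained replicates 1 or 2. Against 0 for alcohol versus isocaloric in trained samples there was 1 without the 2 control arrays written with fewer digits, and 0 to 1 without 1 array. Against 0 in naive samples there were 2 with array weights, 1 without those 2 control arrays and 0 to 1 without 1 array. In both strata the 1 came without control naive replicate 1 or 2. Counts for the other 6 comparisons stayed within 1.5 times. That margin takes in the loss of the Tsc22d3 call for alcohol versus control under 7 of the 32 alternatives. It also takes in the added Nfkbia call for alcohol versus isocaloric with quantile normalisation or median centring. The cause of these differences was not tested.

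Signs turned only for changes that were not called. The Fkbp5 value for alcohol versus isocaloric became 0.0112 with quantile normalisation, 0.0428 with median centring, 0.1251 with the Gapdh ratio, 0.084 without the 6 and 0.0563 without the 4 Ttr-high arrays, and ran from -0.0652 to 0.03 without 1 array. For alcohol versus control, Nr3c2 became 0.1302 without the 2 fewer-digit arrays (-0.1225 to 0.0781 without 1 array), Sgk1 became -0.0106 and Mt2A 0.0234 with the actin ratio (-0.0715 to 0.1033 and -0.1726 to 0.0355 without 1 array), and Fkbp5 became 0.0012 without the 6 Ttr-high arrays. For isocaloric versus control, Sgk1 became 0.05 without the 6 and 0.0085 without the 4 (-0.111 to 0.017 without 1 array), and Nr3c1 ran from -0.106 to 0.0617. Sgk1 for alcohol versus isocaloric ran from -0.0245 to 0.1456. For training, Tsc22d3 became -0.0014 with quantile normalisation, -1e-04 with array weights, -0.025 without the 2 fewer-digit arrays and -0.0075 without the 6 (-0.0284 to 0.0316 without 1 array). Mt2A became 0.0086 without the 4 (-0.0788 to 0.06 without 1 array).

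Replicate numbers did not pair the samples (correlations of -0.2281 to 0.1264 over 36 pairs). With the number as a replicate block, Tsc22d3 for alcohol versus control was -0.34 (adjusted p = 0.0569) and missed the threshold, and Mt2A for training turned to 0.0107. No other call of a member changed under the replicate block. Without counts, the number of arrays limits the precision, and Nfkbia and the second Nr3c1 probe set were dim.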
